A study of Mus musculus with 15 samples.

Results

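The 9 genes described here encode neuropilin-1 and neuropilin-2 (Nrp1, Nrp2), 5 semaphorins (Sema4a, Sema4b, Sema4d, Sema4f, Sema7a) and a pair of plexins (Plxnb2, Plxnd1). They were chosen by symbol from the 17594 genes of the deposited expression table, and all 9 were present. RNA was sequenced from CD4+ T cells sorted from mouse spleen, in 15 libraries. Regulatory T cells (Treg, the CD4 cells that carry the transcription factor Foxp3) came from control animals labelled wild-type (WT, 4 libraries) and from Hpgd knockout animals (KO, 4 libraries). Conventional CD4 T cells (Tconv) came from WT animals (3 libraries) and KO animals (4 libraries). All were on a C57BL/6 background. The KO animals came from a cross of a conditional Hpgd allele to a Foxp3-Cre-YFP line, in which Cre is driven by Foxp3, so recombination is directed to Foxp3-expressing cells and Tconv KO means Tconv of the same KO animals. The sources used here do not say whether the WT animals carried Cre or the conditional allele, nor give the animals' ages. Hpgd encodes hydroxyprostaglandin dehydrogenase, which inactivates prostaglandin E2. The labels call the samples separate without naming the animals, so p-values measure the spread between these samples.

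Semaphorins are secreted, membrane-spanning or lipid-anchored ligands first known from axon guidance. Plexins are their main signalling receptors and act on small GTPases and the cytoskeleton, while neuropilins are co-receptors with short cytoplasmic tails that also bind VEGF family members. In T cells, neuropilin-1 is used as a surface marker of thymus-derived Treg, and class 4 semaphorins on lymphocytes take part in contacts with other immune cells.

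Hpgd itself had 1 read in Treg WT replicate 1 and 0 reads in the other 14 libraries, so it could not check the genotype labels. Assigned reads numbered 6.43 to 10.0 M (mega) per library in Treg WT and 2.64 to 4.71 M in Treg KO. In Tconv they numbered 6.60 to 11.1 M in WT and 2.95 to 10.3 M in KO. Foxp3 was at 3314 to 4800.3 normalized counts in the 8 Treg libraries and 14.4 to 69.5 in the 7 Tconv libraries. Every WT library had Ddx3y reads (1154 to 1520 normalized counts) and every KO library had 0, while Xist was at 8644 to 19007 in KO and at most 5.52 in WT. The WT samples carry numbers 483 to 490 and the KO samples 574 to 581. Genotype, sex and the run of sample numbers therefore cannot be told apart in any KO against WT comparison. Marker lists of other cell types were not at 0 as sums. The 3 natural killer markers summed to 76.8 to 101 normalized counts in Treg WT, 78.9 to 155 in Treg KO, 327 to 420 in Tconv WT and 286 to 933 in Tconv KO, mostly from Nkg7. The 6 B cell markers summed to 151 to 227, 218 to 287, 136 to 183 and 62.8 to 329 in the same order of groups. Of these, Cd79b was at 72.1 to 84.2 in Treg WT, 115 to 166 in Treg KO and 3.16 to 21.0 in Tconv. The 4 plasmacytoid dendritic cell markers summed to 215 to 456 over all libraries, mostly from Bst2, the 3 endothelial markers to 570.1 to 1504, mostly from Pecam1, and 5 myeloid markers to 2.43 to 31.9. Within these lists Siglech reached 0.9, Lyz2 6.7, Ncr1 0.6 and Cdh5 4.6 at most. The part of other cells in the results was not tested.

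The promoters are shown of the 4 genes whose Treg against Tconv difference passed in limma (adjusted p under 0.05) in both genotypes, since these genes carry the main contrast. Each window runs from 250 bases before to 50 bases after an annotated start (RefSeq, GRCm38.p6, first window listed for the gene), and capitals mark CG dinucleotides.
Nrp1, chr8:128358823-128359122, plus strand: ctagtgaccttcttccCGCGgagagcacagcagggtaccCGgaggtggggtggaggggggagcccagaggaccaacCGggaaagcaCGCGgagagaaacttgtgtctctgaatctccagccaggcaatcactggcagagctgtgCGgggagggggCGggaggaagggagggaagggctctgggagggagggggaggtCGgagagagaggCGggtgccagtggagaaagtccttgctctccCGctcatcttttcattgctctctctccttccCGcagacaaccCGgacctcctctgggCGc
Plxnd1, chr6:115994956-115995255, minus strand: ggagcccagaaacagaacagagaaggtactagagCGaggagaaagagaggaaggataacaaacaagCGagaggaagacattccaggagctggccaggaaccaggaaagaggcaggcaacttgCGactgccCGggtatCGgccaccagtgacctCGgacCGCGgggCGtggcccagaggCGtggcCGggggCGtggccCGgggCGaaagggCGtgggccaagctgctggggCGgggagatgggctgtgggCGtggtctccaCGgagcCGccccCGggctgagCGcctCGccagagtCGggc
Sema4a, chr3:88461133-88461432, minus strand: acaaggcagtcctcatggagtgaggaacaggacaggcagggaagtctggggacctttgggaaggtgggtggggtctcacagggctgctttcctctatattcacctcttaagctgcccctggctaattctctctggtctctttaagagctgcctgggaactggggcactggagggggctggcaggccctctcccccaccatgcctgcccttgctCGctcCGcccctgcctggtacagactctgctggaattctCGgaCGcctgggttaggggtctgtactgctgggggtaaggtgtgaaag
Sema4f, chr6:82939720-82940019, minus strand: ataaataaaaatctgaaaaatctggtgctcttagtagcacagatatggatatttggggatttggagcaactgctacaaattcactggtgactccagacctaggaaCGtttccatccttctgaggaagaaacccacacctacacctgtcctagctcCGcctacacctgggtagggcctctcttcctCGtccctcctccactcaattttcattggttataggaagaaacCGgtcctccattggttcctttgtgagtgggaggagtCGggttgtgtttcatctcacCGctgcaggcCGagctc
The windows of Nrp1 and Plxnd1, the genes higher in Treg, hold 14 and 23 CG dinucleotides. Those of Sema4a and Sema4f, the genes lower in Treg, hold 4 and 7, against a median of 7 over all 32851 windows of the table. These 4 genes were chosen after their values were seen, and the counts are a description of the windows. The other windows of Sema4a hold 5, 14 and 7, and those of Sema4d, higher in WT Treg, hold 3, 2 and 3. The windows of Nrp2 and Sema7a hold 37 and 23, those of Sema4b 26 and 28, and those of Plxnb2 27 and 15. Over all windows of the members, the counts did not follow the direction of the difference. All 9 members matched the table, with 16 windows. Both strands were searched for the forkhead letters TGTTTAC, the cAMP response core TGACG, the RUNX letters TGTGGT and the ETS letters CCGGAAG, which are held by 3.65%, 20.8%, 16.8% and 8.86% of all windows. No printed window holds any of them. Among the 16 windows, 1 of Sema4d holds the RUNX letters and the window of Sema7a holds the cAMP response core.

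Levels are normalized counts, which the authors made by dividing gene counts by a size factor for each library. All 9 members passed the filter on low values (at least 10 in at least 3 libraries), Nrp2 through 4 libraries only, all of them Tconv, where it is high. Differences are log2 fold changes of (value + 1) ± SE, and a gene is said to have risen or fallen where its Benjamini-Hochberg adjusted p in limma, over 11314 genes, was under 0.05. In WT, 3 of 9 members were higher in Treg than in Tconv (Nrp1, Sema4d, Plxnd1), where 10.0% of all tested genes were, and 2 were lower (Sema4a, Sema4f), where 8.06% were. In KO, 2 were higher (Nrp1, Plxnd1; all genes 15.8%) and 3 lower (Sema4a, Sema4f and Nrp2; all genes 15.6%), of which Nrp2 was favoured by the filter and is not read as support. The members' median log2 difference was 0.28 in WT and -0.07 in KO, against -0.02 and -0.01 over all tested genes. In Treg KO against Treg WT no member rose (all genes 10.4%) and 2 of 9 fell (Sema4a, Sema4d; all genes 11.1%), with a median of -0.19 against 0.00. In Tconv KO against Tconv WT no member passed, where 0.292% of all genes rose and 0.389% fell. There 0 of 9 members had an unadjusted p under 0.05 in limma, edgeR or DESeq2, where 1358 of all 11314 genes did in limma. After adjustment edgeR and DESeq2 also called 0 members, against 93 and 236 of all genes. The comparisons of Treg with Tconv in KO and of KO with WT in Treg share the Treg KO libraries. In bulk samples, fewer cells of a type and less RNA per cell cannot be told apart.

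**Figure D1:**
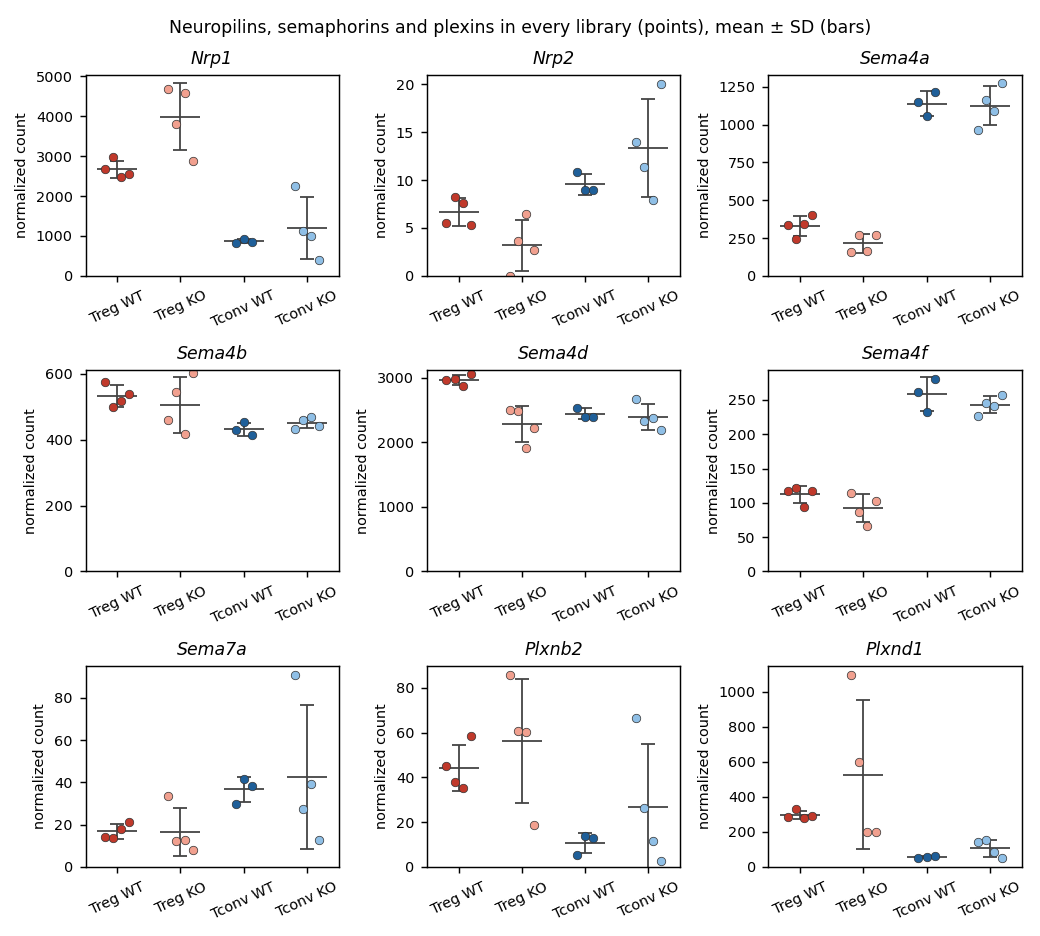
Normalized counts (linear axes from 0) of the 9 genes in each of the 15 libraries; points are libraries, long bars group means and whiskers SD. Nrp1 and Plxnd1 are higher and Sema4a, Sema4f and, at low counts, Nrp2 lower in every Treg library than in any Tconv library of the same genotype. For Plxnd1, 1 Treg KO library reaches 1098.

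Nrp1, the co-receptor for class 3 semaphorins and VEGF (chromosome 8, 128358604 to 128503363, plus strand, GRCm38), was 3.05-fold higher in Treg than in Tconv of WT animals and 3.90-fold higher in KO animals. Treg WT libraries held 2677, 2968, 2467 and 2551 normalized counts, and Tconv WT libraries 834, 926 and 859. Treg KO libraries held 4686, 3794, 4581 and 2883, and Tconv KO libraries 2251, 1126, 994 and 403. No Treg library overlapped a Tconv library of its genotype, and relative to its level the spread was widest in Tconv KO, from 403 to 2251. The log2 difference was 1.61 ± 0.37 in WT (adjusted p = 0.0056, limma) and 1.96 ± 0.34 in KO (adjusted p = 4.6e-04). Both passed under all 30 alternatives run (14 in processing and 16 with libraries left out).

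Nrp1 was not called between genotypes. In Treg, 3 of 4 KO libraries lay above every WT library and 1 lay among them, with a difference of 0.56 ± 0.34 (adjusted p = 0.25). It passed when the Treg groups were fitted alone (adjusted p = 0.032), and over all alternatives the adjusted p ran from 0.032 to 0.42. In Tconv the difference was 0.20 ± 0.37 (adjusted p = 0.85), and without Tconv KO replicate 1 it was -0.19. Beside the Nrp1 values of 2251, 1126, 994 and 403 in Tconv KO, the summed level of 7 Treg markers (Foxp3, Il2ra, Ctla4, Ikzf2, Ikzf4, Tnfrsf18, Lrrc32) was 4686, 2206, 1991 and 994 in the same libraries. It was 1410 to 1632 in Tconv WT and 21204 to 26645 in Treg. Within the sum, Ikzf2 was at 3195, 1215, 1139 and 366 in those 4 libraries, and Ctla4 at 764, 424, 434 and 188. Foxp3 was at 47.2, 69.5, 27.6 and 18.9, Il2ra at 55.9, 69.5, 57.2 and 67.2, and Lrrc32 at 6.99, 17.1, 0 and 2.22, so these 3 did not follow the order of Nrp1. Ctla4, at 424 where Nrp1 was 1126 and 434 where it was 994, followed that order in part. Ikzf4 and Tnfrsf18 make up the rest of the sum and are not given singly here. The summed B cell markers, at 329, 147, 124 and 62.8 (136 to 183 in Tconv WT), and the natural killer marker Nkg7, at 914, 461, 229 and 214 (256 to 378 in Tconv WT), fell in the order of Nrp1. In replicate 1 Klrb1c was at 19.2, against 41.6 to 104 in Tconv WT, and Ncr1 had 0 reads. The part of these markers in the Nrp1 values was not tested. Nrp1 lies 72.0 Mb from Hpgd on the same chromosome.

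**Figure D2:**
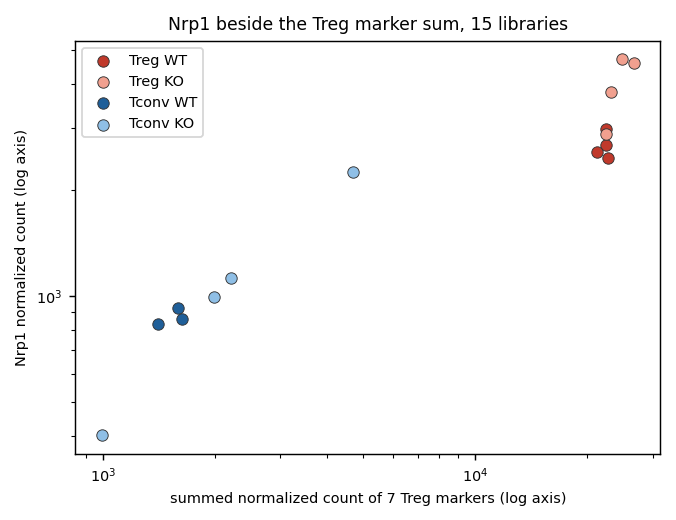
Nrp1 (normalized count, log axis) against the summed normalized count of 7 Treg markers (log axis) in 15 libraries, coloured by group. Tconv KO libraries run from 994 to 4686 on the marker sum and from 403 to 2251 for Nrp1, the widest range of the 4 groups on these log axes.

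The 5 genes whose log2 levels followed Nrp1 most closely over the 15 libraries were Lpxn (Pearson r = 0.994), Ptprj (0.990), Endod1 (0.987), Gnaq (0.986) and Ttn (0.986). These points share libraries, and most of the range is the gap between Treg and Tconv, so the values describe a shared pattern only. Ptprj, a receptor tyrosine phosphatase, had a mean of 100.2 ± 15.7 normalized counts in Tconv WT (SD, n = 3) and 317 ± 28.4 in Treg WT (n = 4). In the KO animals the means were 140.2 ± 82.5 in Tconv and 447 ± 129.6 in Treg (n = 4 each). Like Nrp1, it had its widest relative spread in Tconv KO.

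Nrp2, the second neuropilin (chromosome 1, 62703285 to 62818695, plus strand), was near the lower limit of these data, with 39 reads in all over the Treg WT libraries, 8 over Treg KO, 42 over Tconv WT and 58 over Tconv KO. Treg WT libraries held 5.32 to 8.28 normalized counts and Tconv WT libraries 8.93 to 10.8. Treg KO libraries held 0, 3.64, 6.46 and 2.67, and Tconv KO libraries 7.89 to 20.01. Treg lay below Tconv without overlap in both genotypes, opposite to Nrp1. Since it passed the filter through Tconv libraries only, 3 of them Tconv KO, its fitted log2 difference in KO of -2.02 ± 0.50 is a description, although its adjusted p in limma was 0.0064. With no filter the adjusted p was 0.009, and the call was lost when the KO groups were fitted alone (0.05 after rounding; 0.0019 to 0.05 over alternatives that kept the gene). In WT the difference was -0.48 ± 0.54 (adjusted p = 0.62). With so few reads the size of these differences depends on the pseudocount, and it ran from -2.975 to -0.931 in KO. Between genotypes in Treg it was -1.17 ± 0.50 (adjusted p = 0.11), passing with library weights (0.042) and without Treg KO replicate 3 (-1.55, 0.044), over a range of 0.042 to 0.27.

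Sema4a, a membrane semaphorin that binds plexins of the B and D classes and has been described as a partner of neuropilin-1 on Treg (chromosome 3, 88435959 to 88461182, minus strand), was the most sharply lower member in Treg. In Treg WT the libraries held 339, 244, 344 and 402 normalized counts, against 1147, 1054 and 1217 in Tconv WT. In Treg KO they held 158, 271, 168 and 273, against 965, 1166, 1092 and 1275 in Tconv KO. Every Tconv library was above every Treg library. The level in Treg was 3.47-fold lower in WT (log2 difference -1.79 ± 0.19, adjusted p = 8.9e-06, limma) and 5.29-fold lower in KO (-2.40 ± 0.18, adjusted p = 1.8e-07). Both calls held under all 30 alternatives.

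Sema4a was also lower in Treg KO than in Treg WT, by 1.55-fold (log2 difference -0.63 ± 0.18, adjusted p = 0.022, limma), although 2 KO libraries lay above the lowest WT library. This call was less stable. It was lost when the 2 Treg groups were fitted alone (adjusted p = 0.069), with library weights (0.073) and with a trend on GC content removed (0.14), where the difference shrank to -0.39. Leaving out Treg WT replicate 1, 3 or 4 gave adjusted p-values of 0.059, 0.052 and 0.074, and leaving out Treg KO replicate 1 or 3 gave 0.059 and 0.067. Over all alternatives the adjusted p ran from 0.0076 to 0.14 and the difference from -0.77 to -0.39. In Tconv the difference was -0.02 ± 0.19 (adjusted p = 0.97). The difference between the Treg and Tconv effects was -0.61 ± 0.26 and did not pass (adjusted p = 0.55).

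Sema4d (CD100), a ligand of plexin-B1 shed from activated T cells (chromosome 13, 51685529 to 51793747, minus strand), was abundant in all groups and fell in Treg of KO animals. Libraries of Treg WT held 2963, 2982, 2862 and 3059 normalized counts, and Treg KO libraries 2499.6, 2488, 1909 and 2223. The highest KO library was below the lowest WT library. The fall was 1.31-fold (log2 difference -0.39 ± 0.08, adjusted p = 0.0058, limma) and it passed in every one of the 30 alternatives, with adjusted p-values from 0.00015 to 0.024. Tconv WT libraries held 2535, 2394 and 2393, and Tconv KO libraries 2662, 2327, 2369.7 and 2188, which overlap (-0.03 ± 0.09, adjusted p = 0.90).

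The KO against WT change of Sema4d in Treg differed from that in Tconv by -0.35 ± 0.12, which did not pass over all genes (adjusted p = 0.42, limma; 0.2 to 0.78 over alternatives). No member passed that test of the difference, where 0.0354% of all genes did upward and 0.115% downward. Of the 9 members, 2 had an unadjusted p under 0.05 in limma (Sema4a and Sema4d), where 963 of all 11314 genes did. In edgeR and in DESeq2 3 members did. After adjustment neither of these 2 tools called any member, against 17 and 91 of all genes.

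Against Tconv, Sema4d was 1.22-fold higher in Treg of WT animals (0.28 ± 0.09, adjusted p = 0.039, limma) without overlap between the groups. That call was lost without any single WT library (Tconv WT replicate 1, 2 or 3: adjusted p = 0.072, 0.12 and 0.12; Treg WT replicate 1, 2, 3 or 4: 0.076, 0.082, 0.057 and 0.09). It was also lost without Tconv KO replicate 2 or 3 (0.051 each). In processing it was lost with no filter (0.058), thinned reads (0.069) and the length trend removed (0.077). The range over all alternatives was 0.00017 to 0.12. In KO animals the groups overlapped and the difference was -0.07 ± 0.08 (adjusted p = 0.55).

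Sema4f, a class 4 semaphorin studied mostly in the nervous system (chromosome 6, 82911885 to 82939769, minus strand), was lower in Treg in both genotypes. In Treg WT the libraries held 118, 121, 94.2 and 117 normalized counts, against 261, 232 and 281 in Tconv WT. In Treg KO they held 115, 86.1, 66.8 and 103, against 227, 246, 241 and 257 in Tconv KO. No Treg library overlapped a Tconv library. The difference was -1.19 ± 0.15 in WT (2.29-fold lower, adjusted p = 5e-05, limma) and -1.41 ± 0.14 in KO (2.65-fold lower, adjusted p = 3.4e-06), and both passed under all 30 alternatives. Between genotypes in Treg it was -0.30 ± 0.14 (adjusted p = 0.14), reaching 0.049 without Treg KO replicate 1, over a range of 0.046 to 0.94.

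Sema4b, another class 4 semaphorin (chromosome 7, 80186841 to 80226527, plus strand), ran from 499 to 575 normalized counts in Treg WT and from 413 to 453 in Tconv WT. The WT groups did not overlap, and the difference of 0.30 ± 0.10 missed the threshold (adjusted p = 0.056, limma). It passed with edgeR (0.038), DESeq2 (0.018), library weights (0.0017), the WT groups alone (0.0028) and assumed pairs (0.031), and without Treg KO replicate 3 (0.017) or 4 (0.025), over a range of 0.0017 to 0.17. Treg KO libraries ran from 416 to 602 and Tconv KO libraries from 434 to 469, which overlap (0.15 ± 0.10, adjusted p = 0.25; 0.24 and 0.042 without Treg KO replicate 3).

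Sema7a, a lipid-anchored semaphorin that binds plexin-C1 and the integrin alpha1beta1 (chromosome 9, 57940112 to 57962865, plus strand), was low throughout. Treg WT libraries held 13.8 to 21.3 normalized counts and Tconv WT libraries 29.8 to 41.6, without overlap. Treg KO libraries held 8.02 to 33.4 and Tconv KO libraries 12.8 to 90.9. The highest value of each KO group was replicate 1. The Treg against Tconv difference was -1.08 ± 0.52 in WT (adjusted p = 0.18, limma) and -1.17 ± 0.48 in KO (adjusted p = 0.073). In KO it passed without Tconv KO replicate 4 (-1.61, adjusted p = 0.012) or without Treg KO replicate 1 (-1.55, 0.021), and also with DESeq2 (0.042), quantile normalization (0.022), assumed pairs (0.023) and the length trend removed (0.048), over a range of 0.012 to 0.21. In WT it passed only in a fit of only the WT groups (0.0015), with library weights (0.0037) and without the first replicates of both KO groups (0.03), over a range of 0.0015 to 0.35.

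Plxnd1, a plexin known as a receptor of secreted semaphorin-3E in vessels and thymus (chromosome 6, 115954811 to 115995005, minus strand), was 5.27-fold higher in Treg than in Tconv of WT animals and 4.07-fold higher in KO. Treg WT libraries held 284, 331, 282 and 289 normalized counts, against 48.8, 55.9 and 61.9 in Tconv WT. Treg KO libraries held 1098, 602, 203 and 201, against 143, 154, 84.8 and 50.6 in Tconv KO. The groups did not overlap in either genotype, and the Treg KO libraries fell into 2 above and 2 below every Treg WT library. The log2 difference between cell types was 2.40 ± 0.49 in WT (adjusted p = 0.0025, limma) and 2.03 ± 0.45 in KO (adjusted p = 0.0032), and both passed under all 30 alternatives.

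Between genotypes Plxnd1 did not pass. In Treg the difference was 0.45 ± 0.45 (adjusted p = 0.50, limma), and without Treg KO replicate 1 it was -0.03. In Tconv it was 0.83 ± 0.49 (adjusted p = 0.51), with 3 of 4 KO libraries above every WT library.

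Plxnb2, a receptor of class 4 semaphorins (chromosome 15, 89155549 to 89180788, minus strand), ran from 35.5 to 58.5 normalized counts in Treg WT and from 5.42 to 13.7 in Tconv WT. Treg KO libraries ran from 18.7 to 85.6 and Tconv KO libraries from 2.78 to 66.4. The WT groups did not overlap and the KO groups did. The difference of 2.02 ± 0.72 in WT missed the threshold (adjusted p = 0.067, limma), and it passed with edgeR (0.046), DESeq2 (0.016), library weights (0.0016) and a fit of only the WT groups (1.4e-04). It also passed without Tconv KO replicate 1 (0.022) or 4 (0.014), over a range of 0.00014 to 0.26. In KO the difference was 1.55 ± 0.67 (adjusted p = 0.09), and it passed without Tconv KO replicate 1 (2.20, 0.009) or Treg KO replicate 4 (1.997, 0.036), over a range of 0.009 to 0.28.

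The 2 libraries with adjoining sample numbers, Treg KO replicate 1 (574) and Tconv KO replicate 1 (575), were each the highest of their group for Nrp1, Sema4d, Sema7a and Plxnb2. Treg KO replicate 1 was also the highest for Plxnd1. Treg KO replicate 4 (580) and Tconv KO replicate 4 (581) were each the lowest of their group for Nrp1, Sema7a, Plxnb2 and Plxnd1. Over all tested genes, the deviations from the group means of such adjoining libraries correlated at 0.484, 0.334, 0.208 and 0.541 in the 4 KO pairs and at 0.142, 0.21 and 0.016 in the 3 WT pairs. The sources used here do not say whether adjoining libraries came from 1 animal. With both replicates 1 left out, a step chosen after seeing the data, Nrp1, Plxnd1, Sema4a and Sema4f kept their Treg against Tconv calls in both genotypes and Sema4d its call between genotypes in Treg. The Sema4a call between genotypes was then lost (-0.50, adjusted p = 0.05 after rounding, limma; 0.0076 to 0.14 over alternatives), and Sema7a and Plxnb2 passed between Treg and Tconv in KO (-1.09, adjusted p = 0.031, and 1.94, 0.027) and in WT (0.03 and 0.02). Sema4f then passed between genotypes in Treg (-0.41, adjusted p = 0.046).

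**Figure D3:**
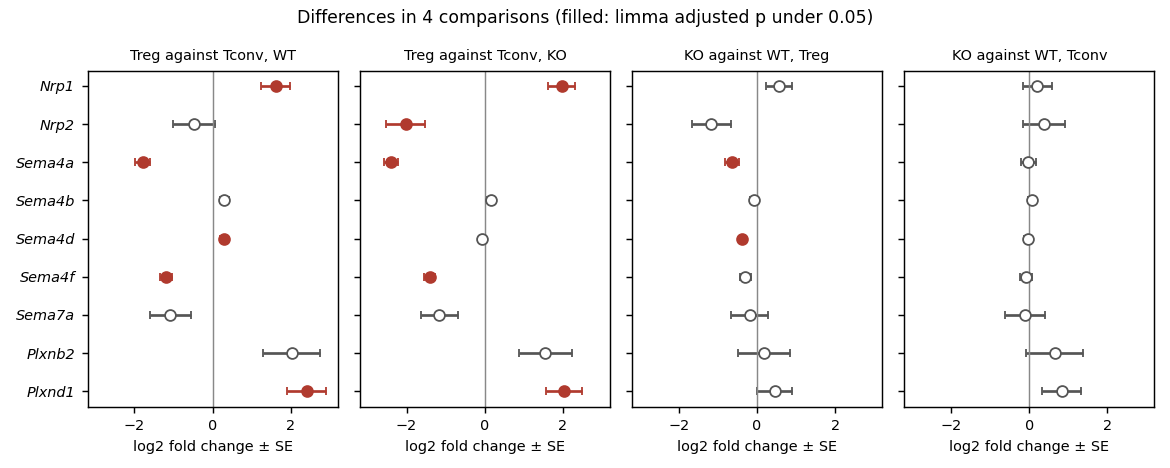
Log2 fold change ± SE (limma) of the 9 genes in 4 comparisons; filled points have an adjusted p under 0.05. Nrp1 and Plxnd1 stand to the right and Sema4a and Sema4f to the left of 0 in both Treg against Tconv panels, and no point is filled for Tconv KO against WT.

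**Figure D4:**
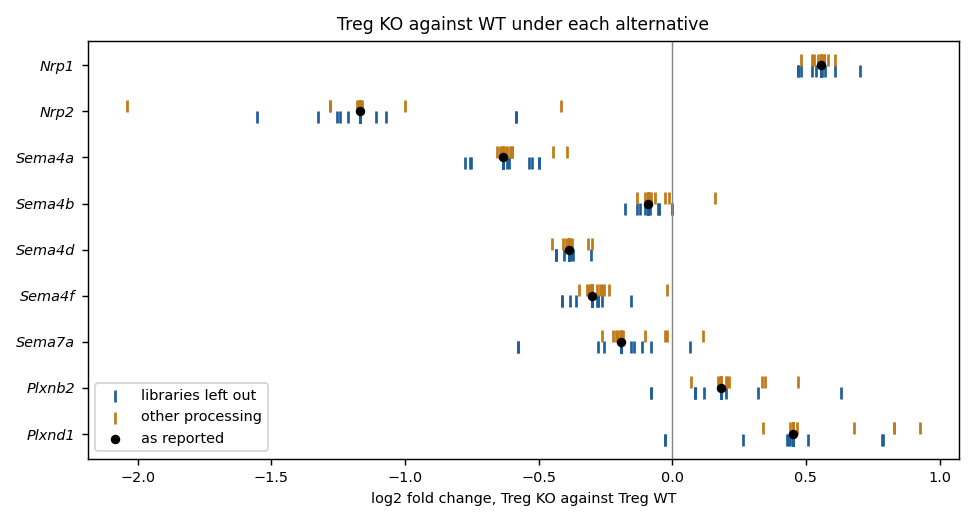
Log2 fold change of each gene in Treg KO against Treg WT as reported (black point) and under each alternative (ticks: libraries left out, below; other processing, above). Sema4d stays between -0.45 and -0.30, while Plxnd1 runs from -0.03 to 0.93.

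Levels of different genes were compared as normalized counts per kb of the longest coding transcript (GENCODE vM21). In Treg WT the order of the 9 members was Nrp1 (741 ± 61.0 per kb, SD, n = 4), Sema4d (662 ± 18.03), Sema4b (135 ± 8.29), Sema4a (104 ± 20.4), Plxnd1 (42.9 ± 3.38), Sema4f (27.6 ± 3.04), Plxnb2 (6.82 ± 1.59), Sema7a (5.12 ± 1.06) and Nrp2 (0.991 ± 0.221). Plxnb2 and Sema7a overlapped, and the other neighbours in this order did not. In Tconv WT the order was Sema4d (545 ± 18.3, n = 3), Sema4a (356 ± 25.5), Nrp1 (243 ± 13.2), Sema4b (109 ± 5.14), Sema4f (63.2 ± 5.99), Sema7a (11.1 ± 1.85), Plxnd1 (8.04 ± 0.945), Plxnb2 (1.65 ± 0.709) and Nrp2 (1.42 ± 0.163), where only the last 2 overlapped. Sema4a per kb was thus above Nrp1 in Tconv WT and below it in Treg WT. In Treg KO, Nrp1 reached 1108 ± 232 per kb and Sema4d 509 ± 62.1 (n = 4 each). The annotated Nrp1 transcript is 3597 bases and the union of its exons 9785. With exon unions as length, Sema4d (386 per kb) stood above Nrp1 (272) in Treg WT, so the order of these 2 rests on the gene model.

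**Figure D5:**
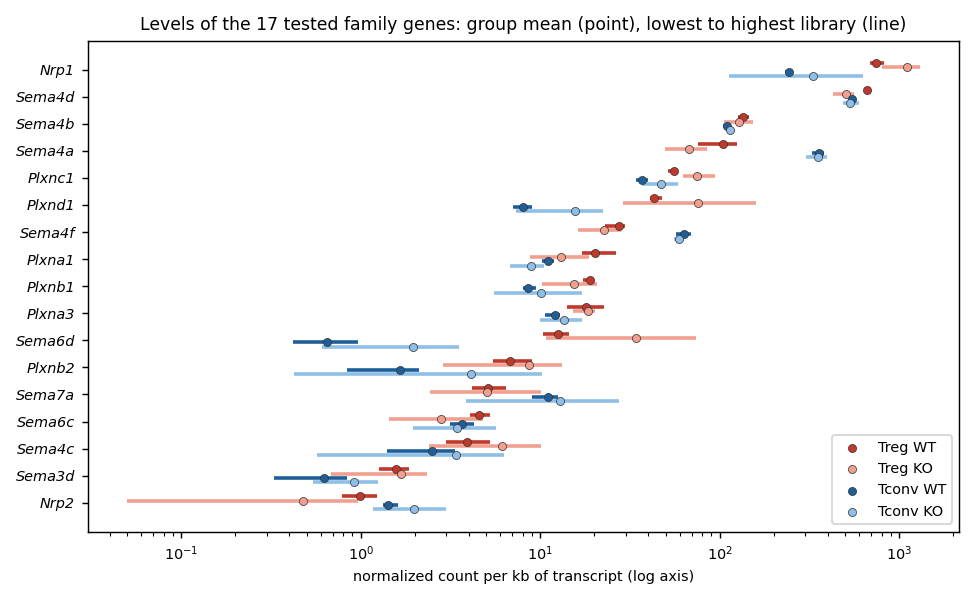
Normalized count per kb of transcript (log axis) of the 17 neuropilin, semaphorin and plexin genes that passed the filter, by group: points are group means, lines run from the lowest to the highest library. Sema6d and Plxnd1 show the widest gap between Treg WT and Tconv WT; the Nrp2 line of Treg KO is drawn to 0.05 because 1 library had 0 reads.

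Of all 31 neuropilin, semaphorin and plexin genes, 17 passed the filter and 14 did not, among them 6 of 7 secreted class 3 semaphorins (only Sema3d passed). In WT, 8 of the 17 were higher in Treg (all genes 10.0%, Sema6d, favoured by the filter, among the 8) and 2 lower (8.06%). In KO, 4 were higher (all genes 15.8%, Sema6d among the 4) and 3 lower (15.6%, Nrp2 among the 3), close to the shares of all genes. Besides the members, Sema6d, a transmembrane ligand of plexin-A1, was at 67.2 to 93.1 normalized counts in Treg WT and 2.71 to 6.19 in Tconv WT (log2 difference 4.03 ± 0.58, adjusted p = 1.3e-04, limma). In KO it was at 69.5 to 474 in Treg and 3.94 to 22.7 in Tconv (4.001 ± 0.535, adjusted p = 4.6e-05). Without the Treg libraries, where it is high, Sema6d would not have passed the filter. Its calls between Treg and Tconv are therefore a description and are not read as support. Plxnc1, the Sema7a receptor, was higher in Treg in WT (0.59 ± 0.15, adjusted p = 0.0092) and in KO (0.68 ± 0.14, 0.0014). Plxna1 (0.84 ± 0.22, 0.014), Plxnb1 (1.14 ± 0.31, 0.017) and Plxna3 (0.55 ± 0.18, 0.05 after rounding) were higher in WT Treg. The call of Plxna3 was lost under 17 of 30 alternatives (adjusted p up to 0.40). That of Plxna1 was lost without Tconv WT replicate 2 (0.062), and that of Plxnb1 without Tconv WT replicate 2 (0.064) or 3 (0.057).

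In Treg KO against Treg WT, 1 of the 17 family genes rose (Plxnc1; all genes 10.4%) and 3 fell (Sema4a, Sema4d, Plxna1; all genes 11.1%), near the shares of all genes. Plxnc1 was at 453 to 689 normalized counts in Treg KO and 374 to 430.4 in Treg WT (0.42 ± 0.14, adjusted p = 0.039, limma). Plxna1 was at 79.7 to 170 in Treg KO and 154 to 240.3 in Treg WT (-0.65 ± 0.20, adjusted p = 0.036). The Plxnc1 call was lost under 11 of 30 alternatives (adjusted p up to 0.12), among them without any single Treg WT library, without Tconv WT replicate 1 and without Treg KO replicate 1 or 3. The Plxna1 call was lost under 9 (up to 0.22), among them without Treg WT replicate 1 or 4 and without Treg KO replicate 1, 2 or 3. Sema6d was not called in Treg KO against WT by limma (1.11, adjusted p = 0.15) and was by edgeR (1.44, 0.025) and DESeq2 (1.45, 0.015), with 1 Treg KO library at 474 against 69.5 to 195 in the other 3. Without that library, replicate 1, the difference was 0.64 (adjusted p = 0.38), and without replicate 4 it was 1.55 (0.043). No family gene passed in Tconv KO against WT.

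The partners list held co-receptors, other ligands and sheddases, and 9 of 16 measured genes passed the filter. In WT none was higher in Treg (all genes 10.0%) and 2 were lower (8.06%), Itga1 (-1.92 ± 0.42, adjusted p = 0.0045, limma) and Itgb1 (-0.90 ± 0.24, 0.016), the subunits of the integrin that binds Sema7a. Itga1 passed the filter through 7 libraries only and was lower in Treg. Its calls in both genotypes are therefore a description and are not read as support. In WT the Itgb1 call was lost without Tconv WT replicate 2 (0.072). In KO, 3 were higher in Treg (all genes 15.8%): Tgfb1 (0.51 ± 0.14, 0.011), Cd72 (0.85 ± 0.30, 0.04) and Adam10 (0.27 ± 0.10, 0.047). The last pair lost their calls under 16 and 18 of 30 alternatives, without most single libraries among them, and Tgfb1 lost its call in a fit of only the KO groups (0.067). Itga1 alone was lower in KO (all genes 15.6%; -2.19 ± 0.39, adjusted p = 6.1e-04). In Treg KO against Treg WT, 3 of 9 rose (all genes 10.4%) and none fell (11.1%): Itgb1 by 0.68 ± 0.22 (adjusted p = 0.042) and the sheddases Adam17 (0.32 ± 0.07, 0.008) and Adam10 (0.37 ± 0.10, 0.017), which cut membrane proteins including semaphorins. The Itgb1 call was lost under 14 of 30 alternatives (up to 0.11), among them without any single Treg WT library. Those of Adam10 and Adam17 were lost with the GC trend removed (0.17 and 0.15), and that of Adam10 also without Treg WT replicate 4 (0.059). The list's median difference there was -0.09, below 0, although the genes that passed rose.

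Of 30 genes that act below plexins, 24 passed the filter. In WT, 4 were higher in Treg (all genes 10.0%) and none lower (8.06%): Mical3, a MICAL family oxidoreductase (1.32 ± 0.16, adjusted p = 2.9e-05, limma), Arhgef12, a GTPase exchange factor bound by class B plexins (1.14 ± 0.16, 9e-05), Limk1, a cofilin kinase (0.55 ± 0.15, 0.018), and Rasa1, a Ras GTPase-activating protein (0.46 ± 0.14, 0.027). In KO, 4 were higher (all genes 15.8%) and 3 lower (15.6%), close to the shares of all genes. Those with the smallest p were Mical3 (1.42 ± 0.15, adjusted p = 4.9e-06) and Arhgef12 (0.96 ± 0.15, 1.5e-04), which were higher, and Cfl1, the actin-severing cofilin-1 (-0.47 ± 0.08, 3.4e-04), and the small GTPase Rap1b (-0.50 ± 0.09, 4.4e-04), which were lower. In Treg KO against WT, Gsk3b rose (0.24 ± 0.08, adjusted p = 0.033; all genes 10.4%) and Cfl1 fell (-0.55 ± 0.08, 4.4e-04; all genes 11.1%). The calls of Limk1 and Rasa1 in WT were each lost under 4 of 30 alternatives, without Tconv WT replicate 3 (0.066 and 0.12) or Treg WT replicate 2 (0.055 and 0.079) among them. Gsk3b lost its call under 8 (adjusted p up to 0.35), the GC and the length trend removed among them, while Cfl1 kept its call under all 30. The medians of this list were -0.07, -0.02 and -0.01 in these 3 comparisons, against -0.02, -0.01 and 0.00 over all genes. None of the 24 passed in Tconv KO against WT.

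For the other members, the gene with the most similar log2 pattern over the 15 libraries was Hid1 for Sema4a (r = 0.995), Man2a2 for Sema4f (0.982), Clip3 for Plxnb2 (0.976), Srgn for Plxnd1 (0.974), Lzts2 for Sema4d (0.942), Zbtb32 for Sema7a (0.914), Etnk1 for Nrp2 (0.892) and Nuak2 for Sema4b (0.872). As for Nrp1, these points share libraries, and for most of these members also the gap between cell types. That gap was small for Sema4d (log2 difference 0.28 in WT and -0.07 in KO) and Sema4b (0.30 and 0.15). Hid1 had a mean of 376 ± 41.8 normalized counts in Tconv WT (SD, n = 3) and 318 ± 53.9 in Tconv KO (n = 4). Its means in Treg were 74.8 ± 17.6 in WT and 42.4 ± 18.2 in KO (n = 4 each), an order of groups like that of Sema4a. Lzts2, beside Sema4d, had means of 61.5 ± 7.16 in WT Treg and 17.3 ± 11.6 in KO Treg (n = 4 each). Its means in Tconv were 21.0 ± 2.83 in WT (n = 3) and 13.4 ± 3.91 in KO (n = 4). Like Sema4d, it had its highest mean in Treg WT.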

How the data were processed

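Per the labels' protocols, Qiazol lysates of sorted spleen cells gave the RNA, and TruSeq RNA libraries (Illumina) were built from 10 ng. TopHat and mm10 are named in the submitters' processing notes. The sources used here do not give versions, the read counter, its use of strand or the annotation. The authors deposited a normalized signal, gene counts divided by 1 size factor per library, and 100% of values were whole reads within a tolerance of 0.001. Libraries held 2.64 to 11.1 M (mega) reads.

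Values were analysed as log2(value + 1) in limma 3.58.1 (R 4.3.3) with 4 group means, all 15 libraries, a trend on mean level and two-sided tests, for 11314 genes with at least 10 in at least 3 libraries. Alternatives were edgeR 4.0.16 and DESeq2 1.42.0 on the whole reads, other pseudocounts, filters and scalings, library weights, assumed pairs, thinned reads, and GC or length trends removed. The pseudocount of 1 understates changes of genes such as Nrp2. The method was tested on simulated data. Positions and lengths came from GENCODE vM21 (GRCm38): 16651 symbols matched, a further 695 through synonyms, 31 had several matches and 217 had none. Drawing used matplotlib.

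The members and gene lists were chosen with earlier results of these data known. Named are all 9 members, tested genes of the family, up to 4 genes a comparison from each of the partner and signalling lists (smallest p among those that passed), and the genes most correlated with each member. Replicate numbers follow accession order. Some genes of the lists are counted there but not reported here by name.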

Additional observations from a re-analysis of the deposited data

Results flagged for a closer look

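Of 27 groups of 4 libraries tested for a library far from the others, 2 had one, where chance gives about 1 in 20. Sema4f was at 94.2 normalized counts in its lowest Treg WT library, and the next was at 117. Plxnd1 was at 331 in its highest Treg WT library, and the next was at 289. Both genes kept their Treg against Tconv calls in WT without any single library.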

How the results depend on the processing

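Each result was recomputed under 14 alternatives and with libraries left out. The number of members called between Treg and Tconv in WT was 5, and 8 in a fit of only the groups compared and with library weights (4 to 7 with libraries left out). Over all 11314 genes there were 2046 such calls, 3990 in that fit and 4330 with library weights. Between Treg KO and WT the number of members called was 2, and 1 with a GC trend removed (1 to 2 with libraries left out). Over all genes it was 2431, and 1399 with the GC trend removed. In Tconv and for the difference of differences the number of members called was 0 throughout, and in KO between Treg and Tconv 4 to 7, against 5.

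Differences that had not been called changed sign as follows, and the cause was not tested. With the GC trend removed, Treg KO against WT was 0.16 for Sema4b and 0.11 for Sema7a, Tconv KO against WT was 0.074 for Sema4a, 0.032 for Sema4f and 0.025 for Sema7a, and the difference of differences was 0.089 for Sema7a. With library weights, Sema4d was 0.016 between Treg and Tconv in KO, Sema4a 0.027 in Tconv KO against WT, and Sema7a 0.11 in the difference of differences. In Tconv KO against WT, Sema4d was 0.009 with quantile normalization and Sema7a 0.10 with edgeR and 0.175 with DESeq2. With libraries left out, Treg KO against WT ran from -0.577 to 0.066 for Sema7a, -0.079 to 0.632 for Plxnb2 and -0.026 to 0.789 for Plxnd1. Tconv KO against WT ran from -0.19 to 0.64 for Nrp1, -0.087 to 0.047 for Sema4a, -0.089 to 0.005 for Sema4d, -0.57 to 0.34 for Sema7a and -0.003 to 1.38 for Plxnb2. Sema4d between Treg and Tconv in KO ran from -0.118 to 0.012. The difference of differences ran from -0.083 to 0.743 for Nrp1, -0.53 to 0.38 for Sema7a and -1.20 to 0.18 for Plxnb2.

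Over all tested genes, calls ran from 1407 to 4330 between Treg and Tconv in WT (2046 as reported), 2042 to 4560 in KO (3558), 1393 to 2779 between genotypes in Treg (2431), 22 to 307 in Tconv (77) and 3 to 91 for the difference of differences (17). The share of calls that were higher in Treg was 55.4% in WT and 50.4% in KO, and 40.9% and 38.8% with the GC trend and 43.7% and 39.7% with the length trend removed. Of the calls in Tconv KO against WT, 42.9% were higher in KO, and 55.8% with the length trend removed. Of the calls for the difference of differences, 23.5% were positive, against 11.8% with edgeR and 35.2% with DESeq2.

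The labels give the groups no shared replicate numbers. Adjoining sample numbers were taken as 7 assumed pairs in 1 alternative (consensus correlation 0.248). It added Sema4b and Plxnb2 in WT and Sema7a and Plxnb2 in KO to the calls between Treg and Tconv. Treg KO libraries were shallower than Treg WT libraries, and Sema4a and Sema4d kept their calls between genotypes in Treg after all libraries were thinned to 2635841 reads. With these thinned reads the Sema4d call between Treg and Tconv in WT was lost (adjusted p = 0.069, limma). Nrp2 is limited by depth.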
